A study of Homo sapiens with 24 samples.

Results

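The DNA replication machinery was followed as 45 genes in HCC4006 and PC9 cells, both long-used lung adenocarcinoma lines with a mutant, active EGFR. The genes were picked by name, for their known part in origin licensing, origin firing, fork movement or the copying of chromatin, and all 45 were found among the 25365 gene rows of the deposited expression table. The rule itself uses no measured level, though the list was drawn up with earlier results of these data known. Each line was studied as YAP1 knockout (YAP1 KO) and control (CTRL) cells, where YAP1 is a transcriptional coactivator held in check by the Hippo pathway. Cells had been treated for 24 hours with OT, which is the EGFR inhibitor osimertinib at 100 nM with the MEK inhibitor trametinib at 30 nM, or with the solvent DMSO. This gave 8 groups of 3 replicates and 24 libraries. The groups were HCC4006 YAP1 KO with OT, HCC4006 YAP1 KO with DMSO, HCC4006 CTRL with OT, HCC4006 CTRL with DMSO, and the same 4 groups of PC9. The sample titles number the replicates and do not say whether they were separate cultures. The column headers carry 1 knockout label per line, so each knockout was treated as 1 cell population, and p-values measure the spread between replicate libraries. The questions were how the replication genes respond to combined EGFR and MEK inhibition, and how that response differs in cells without intact YAP1.

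Replication origins are licensed when the origin recognition complex, CDC6 and CDT1 load the ring-shaped MCM2-7 helicase on DNA. Geminin (GMNN) binds CDT1 and blocks loading outside the licensing window. Cyclin E with CDK2, the kinase CDC7 with DBF4, and MCM10 then help to turn the loaded ring into the active CDC45-MCM-GINS helicase, behind which primase, the replicative polymerases, the PCNA clamp and its RFC loader copy the strands. Many of these genes are transcribed at the G1/S boundary under E2F transcription factors, so their transcript levels are used as markers of cycling cells.

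The table holds FPKM as the authors computed them, that is fragments per unit of transcript length and of library size, so levels can be compared between genes. The FPKM of a library summed to between 507120 and 660459, and depth relative to the first PC9 library ran from 0.940 to 1.42, while absolute depth is unknown. Mean YAP1 FPKM in YAP1 KO cells was 39.6% of that in CTRL cells under OT and 23.2% under DMSO in HCC4006, and 32.2% under OT and 28.1% under DMSO in PC9, so the transcript was reduced and not absent. The epithelial marker EPCAM had 240.4 to 335 FPKM in HCC4006 and 263 to 375 FPKM in PC9. The summed level of 9 epithelial markers was lower with OT in HCC4006, at 3266 to 3329.7 FPKM with OT and 5037 to 5318 FPKM with DMSO in YAP1 KO cells, and 4498 to 4874 FPKM with OT and 6179 to 6531 FPKM with DMSO in CTRL cells. In PC9 it was higher with OT, at 8143 to 8389 FPKM with OT and 6035 to 6215 FPKM with DMSO in YAP1 KO cells, and 9641 to 9961 FPKM with OT and 6697 to 6851 FPKM with DMSO in CTRL cells. NKX2-1, a marker of lung adenocarcinoma, had 15.99 to 56.5 FPKM in HCC4006 and at most 0.938 FPKM in PC9. Of 4 leukocyte markers, PTPRC and CD3E stayed under 1 FPKM in every library. The summed level of the 4 was 108 to 109.98 FPKM in HCC4006 YAP1 KO cells and 82.8 to 85.6 FPKM in HCC4006 CTRL cells under OT, against 21.9 to 24.8 FPKM in the DMSO libraries of that line, and almost all of it was CD68. The summed level of 4 fibroblast markers in HCC4006 was 7.28 to 7.71 FPKM with OT and 2.37 to 2.61 FPKM with DMSO in YAP1 KO cells, and 19.1 to 20.3 FPKM with OT and 3.38 to 3.55 FPKM with DMSO in CTRL cells, with COL1A2 at up to 15.98 FPKM and the defining marker DCN at 0.109 FPKM or less. The part of these markers in the results was not tested.

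OT lowered nearly the whole replication set in both lines and both genotypes. In YAP1 KO cells all 45 genes fell in each line, at a limma adjusted p (Benjamini-Hochberg over all genes tested) under 0.05, where 36.5% of all genes tested fell in HCC4006 and 41.4% in PC9. Their median change on the log2(FPKM + 1) scale was -2.52 in HCC4006 and -2.19 in PC9, beside medians over all genes tested of 0.11 and -0.02. In CTRL cells, 44 of 45 genes fell in HCC4006 and 45 of 45 in PC9, where 36.6% and 40.9% of all genes tested fell. The median changes in CTRL cells were -2.38 in HCC4006 and -1.61 in PC9, beside 0.09 and -0.04 over all genes tested. None of the 45 genes rose in these 4 comparisons at that threshold, while 32.0% to 46.4% of all genes tested did. With libraries rescaled to 1 common FPKM sum, the median over all genes tested in HCC4006 CTRL cells was 0.28 and the share of higher among called genes 66.6%, against 0.09 and 55.1% as deposited, while the median of the 45 genes was -2.18. Because the libraries are of bulk RNA, fewer replicating cells and less of each transcript per cell cannot be told apart.

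The summed level of the set, in which abundant genes such as PCNA weigh most, shows the size of the fall. In HCC4006 the 45 genes together had 269 ± 1.71 FPKM in YAP1 KO cells with OT and 1668 ± 21.9 FPKM with DMSO, and 275 ± 7.89 FPKM in CTRL cells with OT and 1697 ± 15.5 FPKM with DMSO (SD, n = 3 each). In PC9 the sums were 339 ± 2.19 FPKM in YAP1 KO cells with OT and 1853 ± 16.9 FPKM with DMSO, and 561 ± 7.03 FPKM in CTRL cells with OT and 1818 ± 10.02 FPKM with DMSO. The 2 genotypes thus had close sums under DMSO in each line. Under OT they had close sums in HCC4006, whereas in PC9 the YAP1 KO sum lay below the CTRL sum by far more than the spread between replicates.

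**Figure D1:**
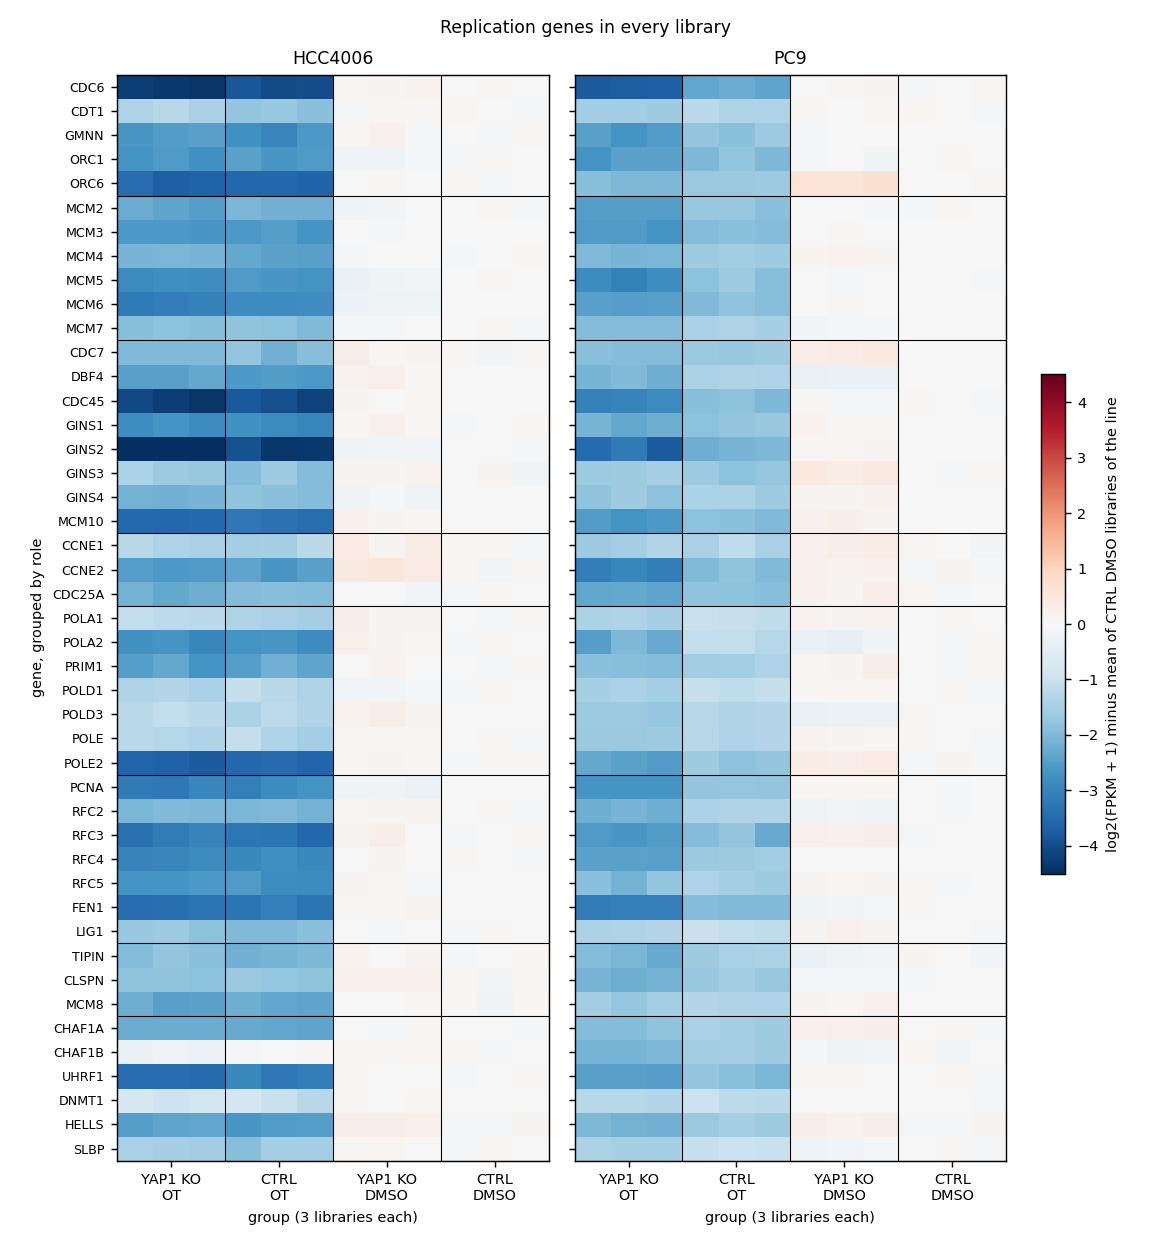
Heat map of log2(FPKM + 1) of the 45 genes (rows, grouped by role) in each of the 24 libraries (columns, HCC4006 left and PC9 right), as the difference from the mean of the CTRL DMSO libraries of the line. The OT libraries are blue for nearly every gene, the YAP1 KO OT libraries of PC9 are darker than its CTRL OT libraries, and the CHAF1B row stays pale in HCC4006.

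As the genes fell together, their promoters were searched for the E2F words TTTCCCGC, TTTCGCGC, TTTGCCGC and TTTGGCGC on either strand, with overlapping hits counted. RefSeq windows (GRCh38.p14, 250 bases before to 50 bases after the transcript start) were at hand for 40 of the 45 genes, as 51 windows. An E2F word lay in 26 of the 51 windows (51.0%), belonging to 25 of the 40 genes, and in 3.31% of all 35116 windows of that length. The CCAAT box, read as CCAAT on either strand, lay in 54.9% of the gene windows and in 34.6% of all windows. The CHR element TTTGAA, a word of genes that peak later in the cell cycle, lay in 1.96% of the gene windows and in 15.2% of all. These are matches of letters and not mapped binding sites. The promoters of GINS2 and CDC6 are shown because these genes had the largest mean falls with OT on the log2(FPKM + 1) scale. That at 1 of the 2 PCNA starts is shown because PCNA was the most abundant transcript of the set. That of CHAF1B is shown because its fall did not pass the test in HCC4006 CTRL cells. The promoters were read 5′ to 3′ on the strand of the gene, with the E2F word in capitals. Their windows are chr16:85688905-85689204 (minus strand) for GINS2, chr17:40287629-40287928 (plus) for CDC6, chr20:5126573-5126872 (minus) for PCNA and chr21:36385142-36385441 (plus) for CHAF1B, in GRCh38.p14.
GINS2: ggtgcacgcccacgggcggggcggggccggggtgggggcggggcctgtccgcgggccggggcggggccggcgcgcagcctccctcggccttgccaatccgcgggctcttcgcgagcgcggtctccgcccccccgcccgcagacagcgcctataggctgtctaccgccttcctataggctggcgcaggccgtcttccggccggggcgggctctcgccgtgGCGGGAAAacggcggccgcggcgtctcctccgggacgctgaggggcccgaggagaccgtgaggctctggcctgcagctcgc
CDC6: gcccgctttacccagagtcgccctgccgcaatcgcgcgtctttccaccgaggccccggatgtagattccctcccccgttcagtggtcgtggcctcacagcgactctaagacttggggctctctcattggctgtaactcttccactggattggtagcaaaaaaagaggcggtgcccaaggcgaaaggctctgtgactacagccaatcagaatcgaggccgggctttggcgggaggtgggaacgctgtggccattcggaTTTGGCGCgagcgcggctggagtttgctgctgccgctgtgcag
PCNA: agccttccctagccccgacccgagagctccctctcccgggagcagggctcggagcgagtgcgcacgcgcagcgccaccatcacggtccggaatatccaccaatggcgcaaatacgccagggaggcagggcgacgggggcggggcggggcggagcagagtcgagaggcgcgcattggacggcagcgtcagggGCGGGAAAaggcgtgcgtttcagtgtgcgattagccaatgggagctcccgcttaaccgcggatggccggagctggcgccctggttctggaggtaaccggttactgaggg
CHAF1B: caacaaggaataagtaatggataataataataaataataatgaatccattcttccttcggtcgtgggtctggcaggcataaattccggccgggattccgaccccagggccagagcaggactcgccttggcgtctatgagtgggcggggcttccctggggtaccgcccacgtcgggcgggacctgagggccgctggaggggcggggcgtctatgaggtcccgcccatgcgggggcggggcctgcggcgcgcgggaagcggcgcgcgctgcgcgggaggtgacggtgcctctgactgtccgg
The word GCGGGAAA, an E2F word read from the other strand, begins 31 bases before the start of GINS2 and 59 bases before that of PCNA. In CDC6 the word TTTGGCGC begins 7 bases after the start, and CCAAT or its complement ATTGG begins 126, 103 and 50 bases before it. The window of the other PCNA start holds no E2F word and CCAAT at 2 places. The CHAF1B window holds none of the E2F words and no CCAAT. The median OT change in CTRL cells was -2.29 in HCC4006 and -1.73 in PC9 for the 25 genes with an E2F word, and -2.54 and -1.51 for the 15 genes without, a description with no test.

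The licensing factors fell most through CDC6, the loader that recruits MCM2-7 to origins. In HCC4006 CTRL cells CDC6 had 1.42, 1.07 and 1.16 FPKM with OT and 32.9, 34.1 and 32.5 FPKM with DMSO, a change of -3.95 ± 0.061 (SE; limma adjusted p = 2.18e-13). In PC9 CTRL cells it had 4.82, 5.22 and 4.604 FPKM with OT and 27.04, 28.4 and 29.4 FPKM with DMSO, a change of -2.32 ± 0.050 (adjusted p = 3.57e-12). No OT library of either line came near a DMSO library, and 3.67% of the DMSO level was left in HCC4006 and 17.2% in PC9. ORC1 and ORC6, subunits of the origin recognition complex, changed by -2.54 and -3.55 in HCC4006 and by -1.94 and -1.66 in PC9.

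CDT1, the second loading factor, fell less than its inhibitor GMNN in both lines. CDT1 had 3.43, 3.604 and 3.12 FPKM with OT and 14.7, 14.2 and 13.4 FPKM with DMSO in HCC4006 CTRL cells, and 8.15, 7.16 and 7.11 FPKM with OT and 21.6, 20.3 and 18.7 FPKM with DMSO in PC9 CTRL cells. GMNN had 5.497, 4.44 and 6.13 FPKM with OT and 42.6, 40.1 and 43.1 FPKM with DMSO in HCC4006 CTRL cells, and 26.7, 24.3 and 29.2 FPKM with OT and 93.6, 91.5 and 94.2 FPKM with DMSO in PC9 CTRL cells. The changes of CDT1 were -1.78 ± 0.066 and -1.32 ± 0.056, and those of GMNN -2.76 ± 0.091 and -1.76 ± 0.067, in HCC4006 and PC9 (SE; limma adjusted p at most 7.36e-10 in each). The FPKM ratio of CDT1 to GMNN was therefore higher with OT, with no overlap between the OT and DMSO libraries of a line and genotype. In HCC4006 CTRL cells the ratio averaged 0.648 ± 0.152 with OT and 0.337 ± 0.0223 with DMSO, and in PC9 CTRL cells 0.281 ± 0.0332 with OT and 0.217 ± 0.0167 with DMSO (SD, n = 3 each). The log2 difference was 1.23 in HCC4006 YAP1 KO cells, 0.92 in HCC4006 CTRL cells, 0.80 in PC9 YAP1 KO cells and 0.37 in PC9 CTRL cells, each with a two-sided exact permutation p of 0.1, the smallest that 3 against 3 libraries allow.

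The MCM2-7 subunits, which form the ring of the helicase, fell without exception and by unequal amounts. MCM6 had the largest mean fall over the lines. It had 4.64, 4.66 and 4.800 FPKM with OT and 39.3, 39.1 and 40.4 FPKM with DMSO in HCC4006 CTRL cells (change -2.83 ± 0.043), and 7.33, 8.39 and 7.796 FPKM with OT and 32.6, 32.4 and 31.6 FPKM with DMSO in PC9 CTRL cells (change -1.91 ± 0.041), where MCM3 at -1.93 fell slightly more. MCM2 had 10.5, 9.73 and 9.56 FPKM with OT and 47.2, 48.1 and 45.2 FPKM with DMSO in HCC4006 CTRL cells, and 17.1, 16.97 and 14.8 FPKM with OT and 55.4, 59.8 and 57.7 FPKM with DMSO in PC9 CTRL cells. In each case the OT and DMSO libraries were far apart. MCM7 was the most abundant subunit in all 8 groups, and the subunit levels were farther apart with OT. The ratio of the highest to the lowest subunit in HCC4006 was 6.85 in YAP1 KO cells with OT and 3.23 with DMSO, and 5.44 in CTRL cells with OT and 3.28 with DMSO. In PC9 that ratio was 6.03 in YAP1 KO cells with OT and 3.44 with DMSO, and 5.56 in CTRL cells with OT and 3.75 with DMSO. These ratios are of group means and were not tested.

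Among the origin firing genes the GINS subunit GINS2, with the helicase partner CDC45, gave the largest falls on the log2(FPKM + 1) scale. GINS2 had 2.87, 1.83 and 1.95 FPKM with OT and 59.3, 58.7 and 56.6 FPKM with DMSO in HCC4006 CTRL cells, a change of -4.22 ± 0.10 (SE; limma adjusted p = 4.28e-12). In PC9 CTRL cells it had 13.04, 14.04 and 14.6 FPKM with OT and 62.9, 63.6 and 62.2 FPKM with DMSO, a change of -2.10 ± 0.10 (adjusted p = 2.25e-09). CDC45 changed by -3.96 in HCC4006 and -1.92 in PC9, and MCM10, which helps to start the helicase, by -3.31 and -1.91. MCM10 was left at 1.88% of its DMSO level in HCC4006 CTRL cells, the lowest share of the 45 genes there. In PC9 CTRL cells it was left at 17.8%, against 22.1% for GINS2 and 22.9% for CDC45. On the linear scale MCM10 thus fell most of the origin firing genes in both lines. The other GINS subunits fell less. GINS1 changed by -2.84 in HCC4006 and -1.77 in PC9, GINS3 by -1.84 and -1.75, and GINS4 by -1.88 and -1.48. The kinase CDC7 and its activator DBF4 changed by -1.95 and -2.56 in HCC4006 and by -1.66 and -1.38 in PC9. GINS2 overlaps GSE1 in the RefSeq annotation, and whether the authors counted by strand is not stated in the labels. GSE1 moved the other way in HCC4006, with a mean of 9.93 FPKM with OT and 6.62 FPKM with DMSO in CTRL cells. ORC1, MCM7, CCNE2, RFC5, CHAF1A and UHRF1 also overlap another protein-coding gene there, and PCNA, POLA1, TIPIN and others of the set overlap noncoding genes. PRPF38A (over ORC1), INTS8 and NDUFAF6 (CCNE2) and WSB2 (RFC5) had lower means with OT in CTRL cells of both lines. PRPF38A averaged 14.9 FPKM with OT and 25.1 FPKM with DMSO in HCC4006 CTRL cells. AP4M1 (MCM7) and UBXN6 (CHAF1A) had higher means with OT. The part of the overlaps in the falls was not tested.

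The cyclins E, which drive entry into S phase with CDK2, fell unequally. CCNE2 had 0.631, 0.375 and 0.534 FPKM with OT and 7.78, 6.81 and 7.75 FPKM with DMSO in HCC4006 CTRL cells, and 2.21, 2.57 and 2.17 FPKM with OT and 11.2, 12.7 and 11.2 FPKM with DMSO in PC9 CTRL cells. CCNE1 had 2.15, 2.205 and 2.88 FPKM with OT and 8.33, 8.39 and 7.62 FPKM with DMSO in HCC4006 CTRL cells, and 3.13, 4.15 and 3.14 FPKM with OT and 10.99, 10.4 and 9.41 FPKM with DMSO in PC9 CTRL cells. Both genes fell in each line without overlap, with changes of -2.48 ± 0.077 and -1.94 ± 0.067 for CCNE2 and -1.42 ± 0.096 and -1.34 ± 0.10 for CCNE1 in HCC4006 and PC9 (SE). The FPKM ratio of CCNE2 to CCNE1 averaged 0.178 ± 0.0142 with OT and 1.03 ± 0.169 with DMSO in HCC4006 YAP1 KO cells, and 0.182 ± 0.0469 with OT and 1.07 ± 0.0606 with DMSO in PC9 YAP1 KO cells. In CTRL cells it averaged 0.216 ± 0.0669 with OT and 0.921 ± 0.104 with DMSO in HCC4006, and 0.672 ± 0.0455 with OT and 1.14 ± 0.108 with DMSO in PC9 (SD, n = 3 each). Cells thus held less CCNE2 than CCNE1 with OT and about equal FPKM of the 2 cyclins with DMSO. The OT against DMSO difference of the log2 ratio had a two-sided exact permutation p of 0.1, the smallest possible, in each of the 4 pairs. CCNE2 was under 1 FPKM in every OT library of HCC4006 and of PC9 YAP1 KO cells, so those ratios rest on low levels. CDC25A, the phosphatase that activates CDK2, had 0.4405, 0.477 and 0.416 FPKM with OT and 4.23, 4.75 and 4.63 FPKM with DMSO in HCC4006 CTRL cells, and 1.15, 1.14 and 1.01 FPKM with OT and 7.05, 6.18 and 6.600 FPKM with DMSO in PC9 CTRL cells.

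**Figure D2:**
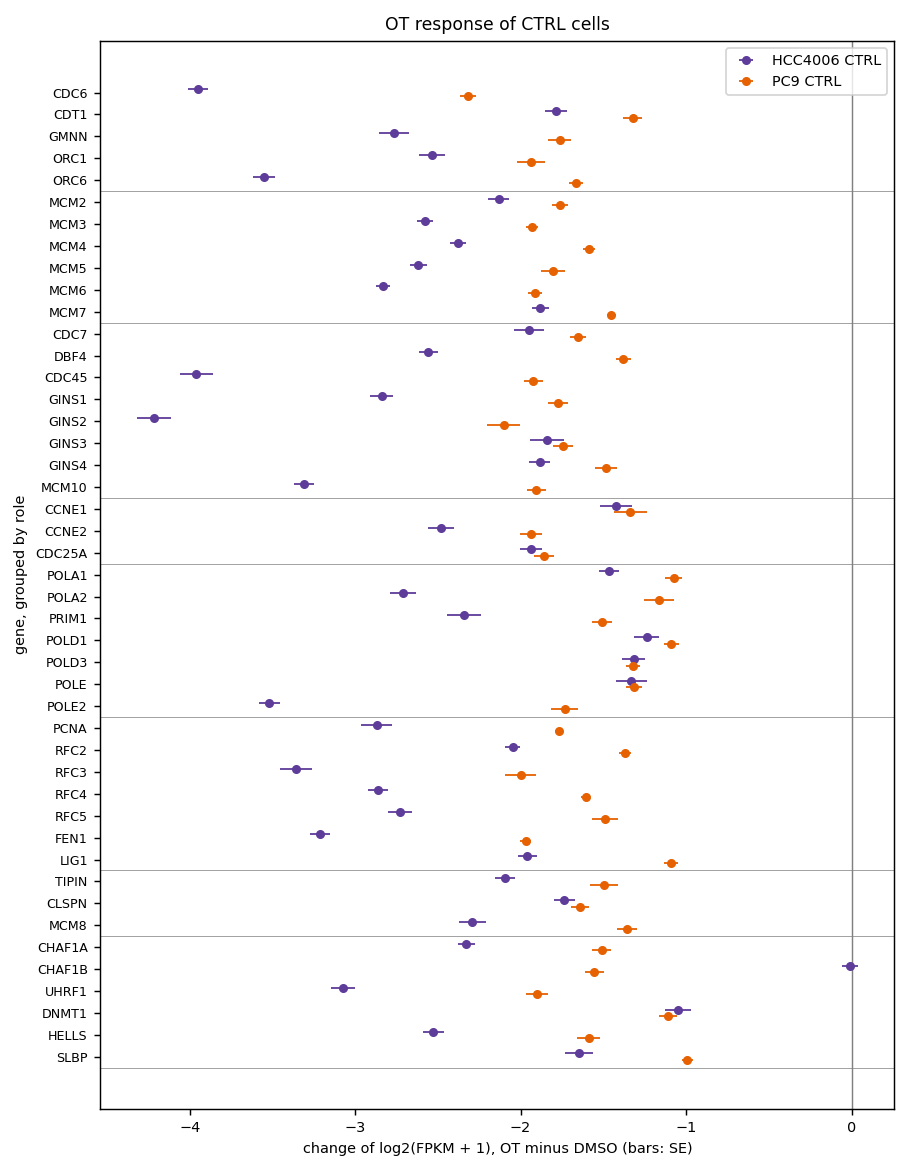
Change of log2(FPKM + 1) with OT, as OT minus DMSO in CTRL cells (x axis, bars are the SE of the limma fit), for the 45 genes grouped by role (y axis) in HCC4006 and PC9. Every gene lies below 0 in PC9, between -2.32 and -0.99, and every gene but CHAF1B lies well below 0 in HCC4006, with GINS2 lowest at -4.22.

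The polymerases fell least of the 8 roles, with a median change of -1.47 in HCC4006 and -1.32 in PC9 CTRL cells, beside -2.86 and -1.61 for the clamp, its loader and the lagging strand enzymes. Within the polymerases POLE2, the accessory subunit of polymerase epsilon, stood apart. It had 0.837, 0.961 and 0.815 FPKM with OT and 19.02, 21.2 and 21.2 FPKM with DMSO in HCC4006 CTRL cells, and 2.09, 1.57 and 1.74 FPKM with OT and 7.77, 9.24 and 7.93 FPKM with DMSO in PC9 CTRL cells. Its changes were -3.52 ± 0.064 and -1.73 ± 0.081, whereas the catalytic subunit POLE changed by -1.33 in HCC4006 and -1.32 in PC9. POLD1, the catalytic subunit of polymerase delta, had 4.91, 4.27 and 3.76 FPKM with OT and 10.9, 11.95 and 11.7 FPKM with DMSO in HCC4006 CTRL cells, and 8.55, 7.92 and 8.36 FPKM with OT and 19.2, 19.5 and 17.7 FPKM with DMSO in PC9 CTRL cells. POLD1 changed by -1.24 ± 0.075 and -1.09 ± 0.046, among the 3 smallest mean falls of the set. Of the polymerase alpha and primase genes, POLA1, the catalytic subunit, changed by -1.47 and -1.08, POLA2 by -2.71 and -1.16, and PRIM1 by -2.34 and -1.51, in HCC4006 and PC9.

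PCNA, the sliding clamp, had the highest FPKM of the set in all 8 groups, and CLSPN, the adaptor of the fork checkpoint, the lowest. PCNA had 49.7, 58.99 and 66.3 FPKM with OT and 421, 431 and 437 FPKM with DMSO in HCC4006 CTRL cells, a change of -2.87 ± 0.093. In PC9 CTRL cells it had 119, 122 and 119.7 FPKM with OT and 416, 403 and 419.8 FPKM with DMSO, a change of -1.77 ± 0.021 (SE; limma adjusted p = 4.94e-14). The groups were far apart in both lines. Of the clamp loader genes RFC3 fell most, with changes of -3.36 in HCC4006 and -2.00 in PC9, and RFC2 least, with -2.05 and -1.37. RFC3 had 3.72, 3.599 and 2.94 FPKM with OT and 42.7, 43.99 and 45.9 FPKM with DMSO in HCC4006 CTRL cells, and 5.01, 5.797 and 3.87 FPKM with OT and 21.4, 22.9 and 22.8 FPKM with DMSO in PC9 CTRL cells. The flap nuclease FEN1 changed by -3.21 and -1.97, and the ligase LIG1, which seals lagging strand fragments, by -1.96 and -1.09. Of the fork stability genes, MCM8, a helicase of fork repair, changed by -2.29 and -1.36, TIPIN by -2.09 and -1.497, and CLSPN by -1.74 and -1.64. On the linear scale CLSPN fell most of these genes. It kept 4.06% of its DMSO level in HCC4006 and 18.8% in PC9 CTRL cells, against 14.3% and 32.5% for MCM8. MCM8 had 2.101, 1.81 and 1.73 FPKM with OT and 13.6, 11.6 and 14.1 FPKM with DMSO in HCC4006 CTRL cells, and 3.13, 2.95 and 2.97 FPKM with OT and 9.21, 9.51 and 9.19 FPKM with DMSO in PC9 CTRL cells.

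The chromatin genes held both a large fall and the single exception. UHRF1, which brings DNMT1 to hemimethylated DNA, had 2.11, 1.53 and 1.66 FPKM with OT and 21.1, 22.4 and 23.1 FPKM with DMSO in HCC4006 CTRL cells, and 3.71, 3.35 and 2.901 FPKM with OT and 15.3, 15.9 and 14.1 FPKM with DMSO in PC9 CTRL cells. It changed by -3.07 ± 0.073 and -1.90 ± 0.065, whereas DNMT1, the maintenance methyltransferase itself, changed by -1.05 ± 0.079 and -1.11 ± 0.055. DNMT1 had 12.6, 11.3 and 9.42 FPKM with OT and 24.3, 23.9 and 23.7 FPKM with DMSO in HCC4006 CTRL cells, and 11.4, 9.82 and 9.502 FPKM with OT and 23.3, 23.8 and 22.6 FPKM with DMSO in PC9 CTRL cells. It kept 46.4% of its DMSO level in HCC4006 and 44.1% in PC9. SLBP, which binds the stem-loop of histone transcripts, kept 31.5% and 49.7%, and the chromatin remodeller HELLS kept 11.1% and 24.9%.

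CHAF1B, a subunit of the histone chaperone CAF-1, did not pass the test for a change with OT in HCC4006 CTRL cells. In HCC4006 YAP1 KO cells it had 8.14, 8.44 and 8.36 FPKM with OT and 10.8, 10.7 and 10.96 FPKM with DMSO, a change of -0.35 ± 0.049 without overlap (SE; limma adjusted p = 3.14e-05). In HCC4006 CTRL cells it had 9.63, 10.1 and 10.7 FPKM with OT and 10.7, 9.74 and 10.1 FPKM with DMSO, a change of -0.01 ± 0.049 (adjusted p = 0.878), and the libraries overlapped. In PC9 CTRL cells it had 4.35, 4.64 and 4.302 FPKM with OT and 16.1, 13.7 and 15.2 FPKM with DMSO, a change of -1.55 ± 0.059. CHAF1A, the largest subunit of the same chaperone, changed by -2.33 in HCC4006 and -1.51 in PC9 CTRL cells. The difference between the lines was tested, and the CHAF1B response in HCC4006 exceeded that in PC9 by 1.55 ± 0.075 (adjusted p = 3.58e-13). The near-zero HCC4006 value depends on scaling. It was 0.20 with libraries rescaled to that common sum (adjusted p = 0.00860) and -0.12 with median-of-ratios scaling (adjusted p = 0.0365), and 0.024 without CTRL DMSO replicate 1 or without CTRL OT replicate 1.

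**Figure D3:**
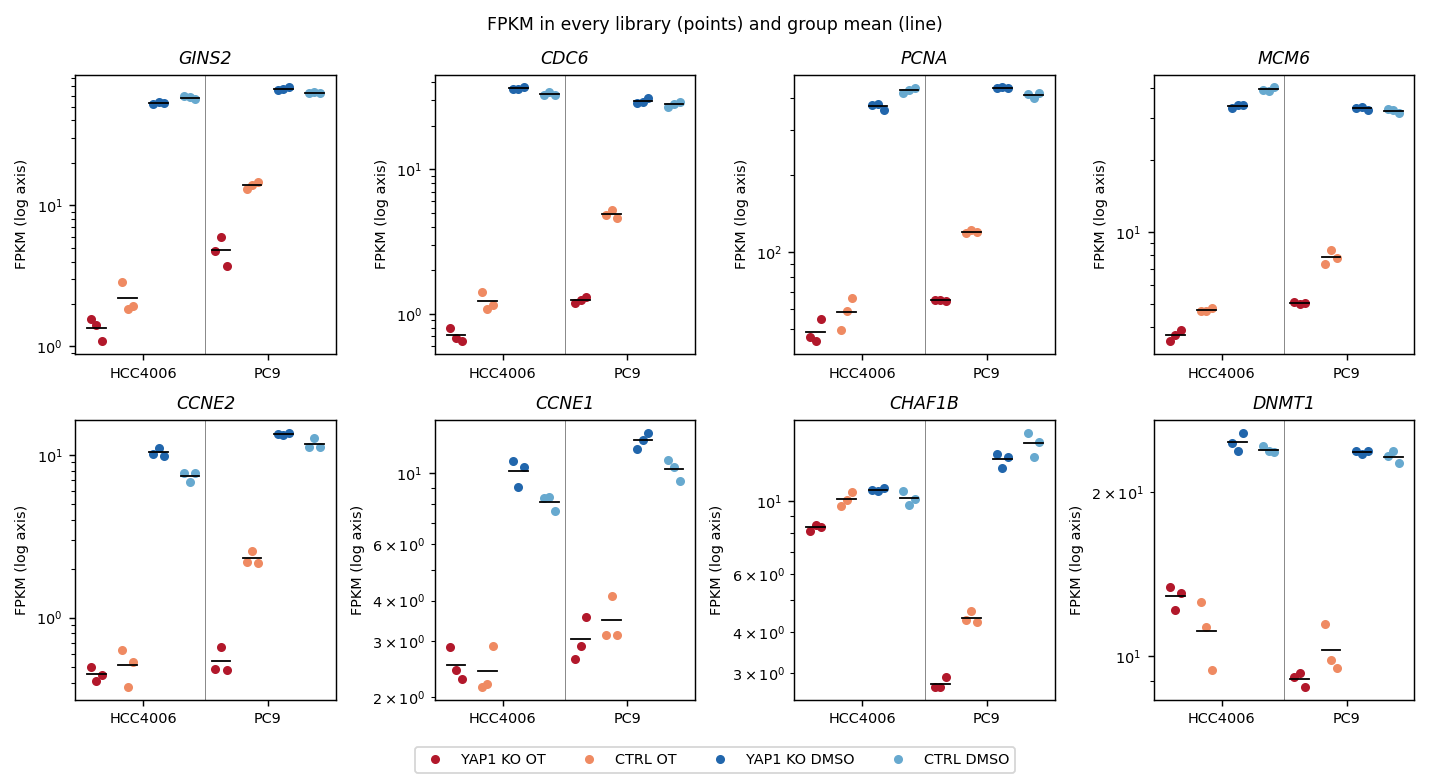
FPKM of 8 genes (log axis) in each of the 24 libraries (points), with the group mean as a line, in HCC4006 (left of each panel) and PC9 (right), for YAP1 KO and CTRL cells with OT and then with DMSO. GINS2, CDC6 and CCNE2 in PC9 lie lower in YAP1 KO than in CTRL cells under OT, CCNE1 in PC9 overlaps between genotypes under OT, and CHAF1B in HCC4006 CTRL cells is level across treatments.

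The filter on low values bears on these counts. A gene was tested where at least 3 libraries of the line had an FPKM of 1 or more, and all 45 genes passed in both lines. In HCC4006, 9 of them (ORC1, CDC7, CDC45, GINS4, MCM10, CCNE2, CDC25A, POLE2 and CLSPN) passed only through their DMSO libraries, and in PC9 only CLSPN did. Of the genes that passed in OT libraries too, 35 of 36 fell in HCC4006 CTRL cells and 44 of 44 in PC9 CTRL cells. The log2(FPKM + 1) scale understates the fall of these low genes.

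The fall was larger in HCC4006 than in PC9. The OT response of CTRL cells, tested as a difference of responses over all 24 libraries, was more negative in HCC4006 for 36 of 45 genes and less negative for CHAF1B, where 27.1% and 38.1% of all genes tested differed in these directions. The median difference was -0.81, beside 0.08 over all genes tested. The 5 largest differences were those of GINS2 at -2.11 ± 0.15 (SE; limma adjusted p = 2.27e-10), CDC45 at -2.04 ± 0.12, ORC6 at -1.89 ± 0.077, POLE2 at -1.78 ± 0.10 and CDC6 at -1.63 ± 0.077. CDC45 and POLE2 had passed the filter in HCC4006 only through DMSO libraries, which favours a large fall there. ORC6 had 1.56, 1.604 and 1.48 FPKM with OT and 29.9, 27.6 and 29.2 FPKM with DMSO in HCC4006 CTRL cells, and 4.74, 4.71 and 4.804 FPKM with OT and 16.9, 16.9 and 17.9 FPKM with DMSO in PC9 CTRL cells. CDC45 had 0.873, 0.647 and 0.415 FPKM with OT and 24.4, 24.9 and 23.99 FPKM with DMSO in HCC4006 CTRL cells, and 4.85, 5.04 and 4.46 FPKM with OT and 21.5, 21.04 and 20.2 FPKM with DMSO in PC9 CTRL cells. For both genes the DMSO level was the higher and the OT level the lower in HCC4006. The 8 genes with no called difference were CCNE1, CDC25A, GINS3, CLSPN, DNMT1, POLD1, POLD3 and POLE. CLSPN, a low gene, nevertheless kept 4.06% of its DMSO level in HCC4006 and 18.8% in PC9 CTRL cells. CDC25A, also low, kept 9.79% and 16.6%.

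On the linear scale a median of 13.6% of the DMSO level was left in HCC4006 CTRL cells (range 1.88% to 99.4%) and 28.8% in PC9 CTRL cells (range 16.6% to 49.7%). The share left was lower in HCC4006 for 43 of 45 genes, with DNMT1 and CHAF1B as the exceptions. The changes of the 45 genes were ordered alike in the lines, with a Pearson r of 0.684 and a Spearman rho of 0.720 over the 45 genes, and 0.746 and 0.736 without CHAF1B. Genes are not independent replicates, so these describe the set only.

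With DMSO the share of the set that differed between the lines was near that of all genes tested. In all, 17 of 45 genes were higher and 23 lower in HCC4006 than in PC9 CTRL cells, where 37.7% and 44.4% of all genes tested were. The median difference was -0.15, beside -0.06 over all genes tested. POLE2 was higher in HCC4006 by 1.21 ± 0.074, while MCM3, a subunit of the MCM2-7 ring, was lower at -1.19 ± 0.042 and GMNN lower at -1.13 ± 0.084 (SE; limma adjusted p at most 6.72e-11 in each). MCM3 had 44.97, 46.6 and 45.03 FPKM in HCC4006 and 107, 105 and 104 FPKM in PC9 CTRL cells with DMSO.

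Loss of YAP1 came with small differences in the set under DMSO. In HCC4006, CCNE2 and HELLS were higher and MCM6 and MCM5 lower in YAP1 KO than in CTRL cells, so 2 of 45 genes were called higher and 2 lower, where 9.20% and 8.65% of all genes tested were. CCNE2 had 10.2, 11.1 and 9.78 FPKM in YAP1 KO and 7.78, 6.81 and 7.75 FPKM in CTRL cells, a difference of 0.43 ± 0.077 (SE; limma adjusted p = 0.00282) that missed the threshold at a pseudocount of 0.01 (adjusted p = 0.0624). HELLS had 16.8, 16.8 and 15.9 FPKM in YAP1 KO and 12.7, 12.9 and 14.4 FPKM in CTRL cells, a difference of 0.29 ± 0.062. In PC9, 14 of 45 genes were higher and 7 lower, where 19.8% and 20.0% of all genes tested were, with a median difference of 0.08 beside 0.01 over all genes tested. ORC6 led with 26.9, 26.1 and 28.4 FPKM in YAP1 KO and 16.9, 16.9 and 17.9 FPKM in CTRL cells, a difference of 0.63 ± 0.044 (adjusted p = 5.63e-07), followed by GINS3 with 18.9, 17.3 and 18.2 FPKM in YAP1 KO and 13.4, 13.2 and 14.2 FPKM in CTRL cells, a difference of 0.39 ± 0.061. DBF4 at -0.32 was the lowest. These small counts depend on single libraries. In PC9, 9 were higher without YAP1 KO DMSO replicate 3 or at a pseudocount of 0.01, and 4 were lower without YAP1 KO DMSO replicate 1. In HCC4006, 1 was lower without CTRL DMSO replicate 2 and likewise without replicate 1 or replicate 2 of the YAP1 KO DMSO libraries, and 4 were higher without CTRL OT replicate 1.

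Under OT the genotypes parted in PC9 and much less in HCC4006. In HCC4006, 12 of 45 genes were lower and 6 higher in YAP1 KO than in CTRL cells, where 16.4% and 27.2% of all genes tested were, with a median difference of -0.02 beside 0.06. In PC9, 43 of 45 genes were lower in YAP1 KO than in CTRL cells and 1 higher, where 25.2% and 28.5% of all genes tested were, with a median difference of -0.51 beside 0.02. The YAP1 KO level under OT was a median of 95.7% of the CTRL level in HCC4006 (range 24.7% to 144%) and 61.4% in PC9 (range 23.3% to 117%). Of the 36 genes that passed the filter in HCC4006 OT libraries too, 9 were called lower, and the other 3, MCM10, CDC25A and GINS4, were under 1 FPKM with OT in both genotypes. The YAP1 KO mean under OT was below the CTRL mean for 26 of 45 genes in HCC4006 and for 44 of 45 in PC9.

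In PC9 the lower levels under OT spanned all 8 roles. CDC6 had 1.19, 1.25 and 1.31 FPKM in YAP1 KO and 4.82, 5.22 and 4.604 FPKM in CTRL cells under OT, a difference of -1.39 ± 0.050 (SE; limma adjusted p = 1.46e-09). GINS2 had 4.78, 5.97 and 3.74 FPKM in YAP1 KO and 13.04, 14.04 and 14.6 FPKM in CTRL cells, a difference of -1.37 ± 0.10. CCNE2 had 0.483, 0.658 and 0.476 FPKM in YAP1 KO and 2.21, 2.57 and 2.17 FPKM in CTRL cells, a difference of -1.11 ± 0.067. For these 3 genes every YAP1 KO library lay below every CTRL library. FEN1 had 8.06, 8.45 and 8.43 FPKM in YAP1 KO and 19.4, 19.3 and 19.3 FPKM in CTRL cells, a difference of -1.13 ± 0.033. POLA2, the B subunit of polymerase alpha, had 3.85, 5.54 and 4.498 FPKM in YAP1 KO and 11.3, 11.5 and 10.1 FPKM in CTRL cells, a difference of -1.09 ± 0.090. The FEN1 libraries lay within 1 FPKM of each other in each genotype, the POLA2 libraries of YAP1 KO cells spread more, and for both genes the genotypes did not overlap. MCM5 and CDC45 also differed by more than 1, at -1.09 and -1.05. The log2(FPKM + 1) scale shrinks differences of low genes. On the linear scale the YAP1 KO level was 36.4% of the CTRL level for MCM10, 40.8% for CLSPN and 41.5% for POLE2. These shares were below that of MCM5 at 43.1%.

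Other members moved less in PC9 under OT on the log2(FPKM + 1) scale. PCNA had 64.99, 65.3 and 64.3 FPKM in YAP1 KO and 119, 122 and 119.7 FPKM in CTRL cells, a difference of -0.88 ± 0.021 (limma adjusted p = 1.16e-10). MCM2 differed by -0.71 ± 0.049, GMNN by -0.77 ± 0.067, CDT1 by -0.26 ± 0.056, UHRF1 by -0.56 ± 0.065, CDC25A by -0.47 ± 0.061 and SLBP by -0.48 ± 0.035. CDC25A was low, and on the linear scale its YAP1 KO level was 47.2% of the CTRL level, against 53.9% for PCNA. CCNE1 had 2.64, 2.89 and 3.55 FPKM in YAP1 KO and 3.13, 4.15 and 3.14 FPKM in CTRL cells, a difference of -0.15 ± 0.10 that did not pass the test (adjusted p = 0.226), and the genotypes overlapped. GINS3 was the gene called higher, at 0.18 ± 0.061 (adjusted p = 0.0237), and that call was lost with median-of-ratios scaling, without CTRL OT replicate 2 and without YAP1 KO OT replicate 3, where 0 genes were higher. GINS3 was also higher in YAP1 KO cells with DMSO.

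The OT response itself was larger in PC9 YAP1 KO cells. As the OT change of YAP1 KO cells minus that of CTRL cells, it was called more negative for 42 of 45 genes and less negative for none at an adjusted p under 0.05, where 13.8% and 13.2% of all genes tested were. The 3 genes not called were GINS3, DNMT1 and POLD3. The median was -0.58, beside 0.01 over all genes tested. GINS2 led at -1.46 ± 0.14 (SE; limma adjusted p = 1.98e-05), with CDC6 at -1.45 ± 0.070 (adjusted p = 1.70e-07) and CCNE2 at -1.29 ± 0.095 (adjusted p = 3.01e-06). The share of the DMSO level left with OT was lower in YAP1 KO than in CTRL cells for all 45 genes in PC9, with medians of 17.5% and 28.8%. By role, the median on the log2(FPKM + 1) scale was largest for the clamp, loader and lagging strand genes at -0.80. It was smallest for the fork stability genes at -0.40. That scale shrinks differences of low genes, so this order of roles belongs to it. Of the S-phase entry genes, CCNE2 kept 19.8% of its DMSO level in CTRL and 4.02% in YAP1 KO cells. CDC25A kept 16.6% and 6.64%, and CCNE1 33.8% and 24%. Of the 44 genes that passed the filter in OT libraries too, 41 were called.

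**Figure D4:**
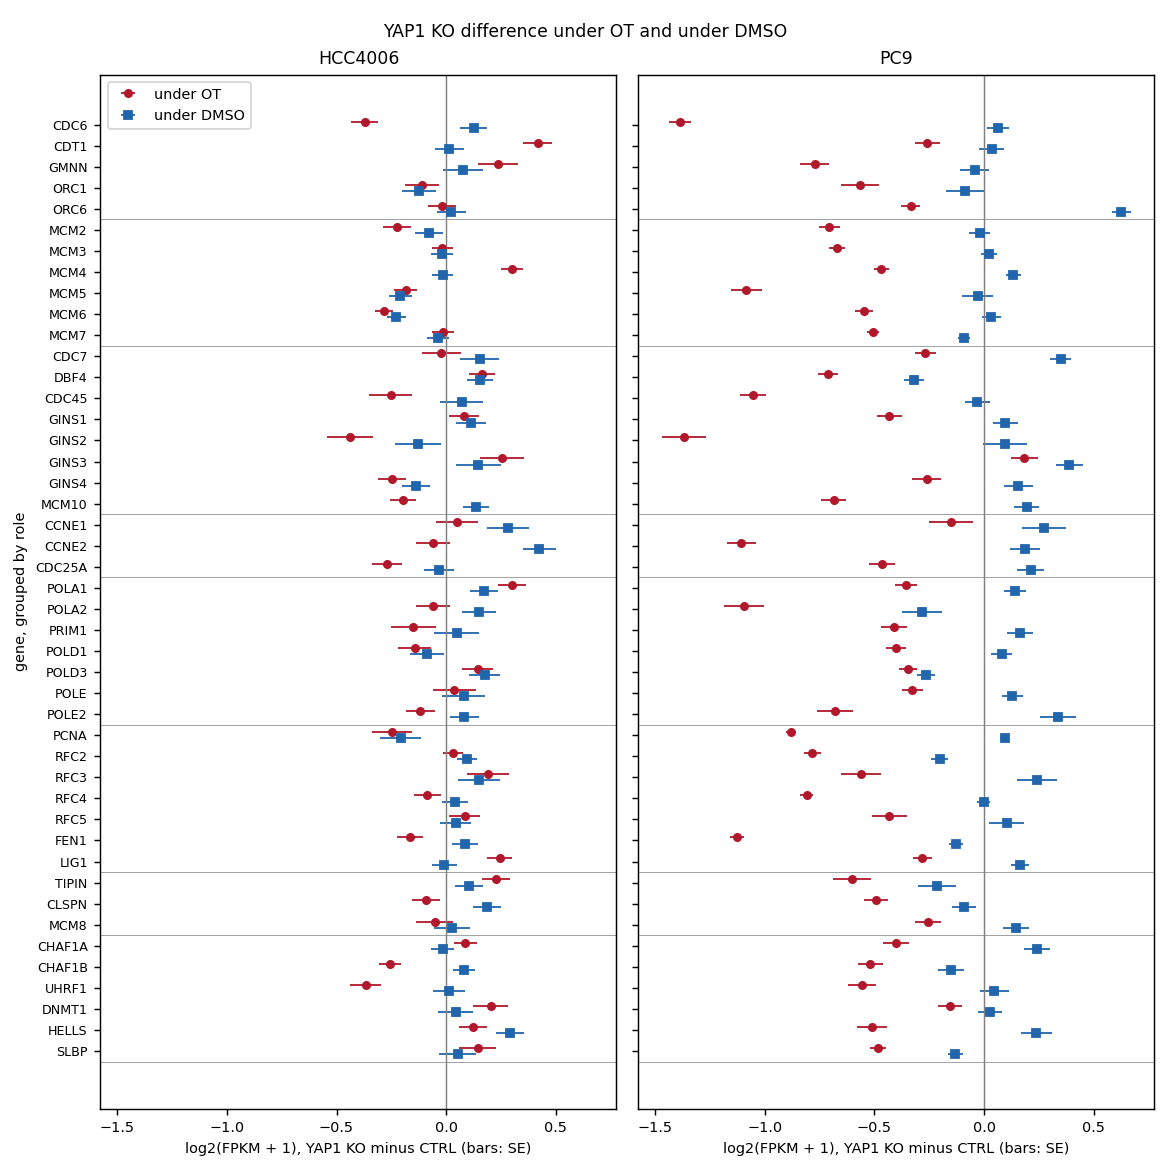
YAP1 KO minus CTRL on log2(FPKM + 1) (x axis, bars are the SE of the limma fit) for the 45 genes grouped by role, under OT and under DMSO, in HCC4006 (left) and PC9 (right). In PC9 the points under OT lie between -1.39 and 0.18 and most are clear of those under DMSO, while in HCC4006 both sets lie between -0.44 and 0.43.

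In HCC4006 the genotypes differed under OT in both directions. GINS2 had 1.57, 1.41 and 1.09 FPKM in YAP1 KO and 2.87, 1.83 and 1.95 FPKM in CTRL cells, a difference of -0.44 ± 0.10 (SE; limma adjusted p = 0.00529). CDC6 had 0.802, 0.685 and 0.646 FPKM in YAP1 KO and 1.42, 1.07 and 1.16 FPKM in CTRL cells, a difference of -0.37 ± 0.061. UHRF1 had 1.16, 1.17 and 1.08 FPKM in YAP1 KO and 2.11, 1.53 and 1.66 FPKM in CTRL cells, a difference of -0.37 ± 0.073. These were lower without overlap, at low levels in both genotypes. CDT1 had 4.75, 5.32 and 4.52 FPKM in YAP1 KO and 3.43, 3.604 and 3.12 FPKM in CTRL cells, a difference of 0.42 ± 0.066 (adjusted p = 3.40e-04). MCM4 had 6.18, 6.29 and 6.15 FPKM in YAP1 KO and 5.23, 4.77 and 4.58 FPKM in CTRL cells, a difference of 0.30 ± 0.048. Both were higher in every YAP1 KO library than in any CTRL library. Of the other genes, CDC25A, MCM6, CHAF1B, GINS4, PCNA, MCM2, MCM10, MCM5 and FEN1 were lower and DBF4, TIPIN, LIG1 and POLA1 higher. Of these genes MCM10 had the lowest levels, 0.0626, 0.0264 and 0.0642 FPKM in YAP1 KO and 0.3002, 0.192 and 0.127 FPKM in CTRL cells.

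Few genes of the set had an OT response in HCC4006 that differed between genotypes, and their share was near that of all genes tested. It was more negative in YAP1 KO cells for CDC6 at -0.50 ± 0.087 (limma adjusted p = 0.00199), CCNE2 at -0.48 ± 0.11 (adjusted p = 0.00916), UHRF1, CHAF1B and MCM10. It was less negative for CDT1 at 0.40 ± 0.093 (adjusted p = 0.0107), MCM4 and LIG1. These were 5 and 3 of 45 genes, where 8.18% and 10.5% of all genes tested differed in these directions. CCNE2 and MCM10 had passed the filter only through DMSO libraries, and 3 of the more negative genes were among those that passed in OT libraries too. The CCNE2 call was lost at pseudocounts of 0.1 and 0.01 (adjusted p = 0.0602 and 0.0836). The 5 more negative genes became 8 without CTRL OT replicate 3 and 3 without YAP1 KO DMSO replicate 1, and the 3 less negative genes became 1 with the common FPKM sum.

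The difference between the lines in YAP1 KO minus CTRL was tested in its own right. With 1 knockout label per line, an effect of YAP1 loss cannot be told apart from other traits of that cell population. YAP1 KO minus CTRL under OT was higher in HCC4006 than in PC9 for 37 of 45 genes and lower for none at an adjusted p under 0.05, where 25.4% and 17.1% of all genes tested were. The median difference was 0.52, beside 0.05 over all genes tested. CCNE2 at 1.05 ± 0.10, POLA2 at 1.03 ± 0.12, GMNN at 1.01 ± 0.12 and CDC6 at 1.01 ± 0.077 were above 1 (SE; limma adjusted p at most 1.08e-06 in each). The 8 genes not called were CDC7, GINS3, GINS4, CCNE1, CDC25A, PRIM1, MCM8 and UHRF1. Of the called genes, ORC1, CDC45, MCM10, CCNE2, POLE2 and CLSPN had passed the filter in HCC4006 only through DMSO libraries. On the linear scale MCM10 and CLSPN went the other way. Their YAP1 KO levels under OT were 24.7% and 37.5% of the CTRL levels in HCC4006, and 36.4% and 40.8% in PC9. For ORC1, CDC45, CCNE2 and POLE2 that share was higher in HCC4006. The share left with OT in YAP1 KO cells had a median of 13.1% in HCC4006 (range 0.42% to 76.7%) and 17.5% in PC9 (range 4.02% to 38.6%), and was lower in HCC4006 for 31 of 45 genes, against 43 in CTRL cells.

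**Figure D5:**
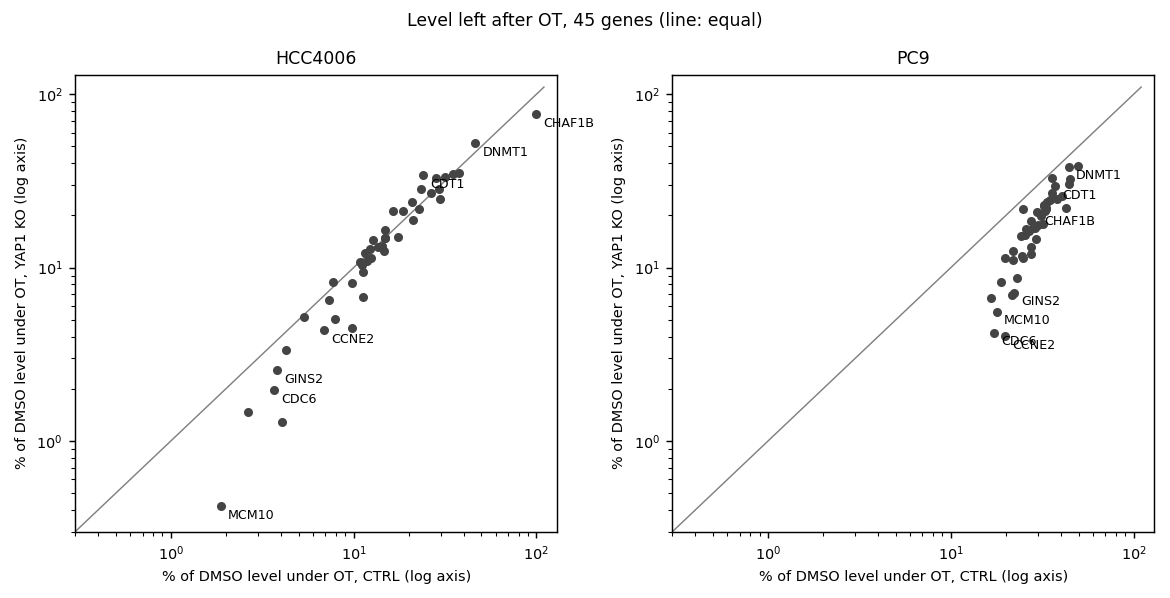
Share of the mean DMSO level left with OT for each of the 45 genes, in YAP1 KO cells (y axis, log) against CTRL cells (x axis, log), in HCC4006 (left) and PC9 (right), with the line of equal shares. In PC9 all 45 genes lie below the line, and in HCC4006 28 of 45 do, with CHAF1B at the top right and MCM10 at the bottom left.

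A second list of 42 replication genes, those not among the 45, also fell in the main. In CTRL cells, 38 of 42 fell with OT in HCC4006 and 39 of 42 in PC9, where 36.6% and 40.9% of all genes tested fell, with median changes of -1.34 and -0.96. The largest mean falls were those of the histone chaperone ASF1B at -4.03 in HCC4006 and -1.66 in PC9, of the topoisomerase TOP2A at -4.24 and -1.35, and of DSCC1, a subunit of an alternative clamp loader, at -3.55 and -1.90. DSCC1, at most 0.612 FPKM with OT in HCC4006, passed the filter there only through DMSO libraries, which favours a large fall. The same holds for TICRR, ATAD5 and MMS22L, and the counts of this list were not split by that. TOP2A averaged 2.41 ± 0.231 FPKM with OT and 63.6 ± 7.95 FPKM with DMSO in HCC4006 CTRL cells, and 28.2 ± 0.826 FPKM with OT and 73.7 ± 1.001 FPKM with DMSO in PC9 CTRL cells (SD, n = 3 each). POLD4, the smallest subunit of polymerase delta, rose in both lines. It averaged 133 ± 16.2 FPKM with OT and 76.1 ± 0.756 FPKM with DMSO in HCC4006 CTRL cells, and 48.2 ± 2.73 FPKM with OT and 27.5 ± 0.796 FPKM with DMSO in PC9 CTRL cells, changes of 0.80 ± 0.071 and 0.78 ± 0.049 (SE; limma adjusted p = 4.27e-07 and 2.48e-08). MCM9 at 0.36 ± 0.11 and CHTF8 at 0.13 ± 0.051 also rose in HCC4006, whereas in PC9 their values of 0.01 and 0.01 did not pass the test. The CHTF8 value in HCC4006 was near the median of 0.09 over all genes tested, and no other scaling is given for it. Under OT, YAP1 KO cells differed from CTRL cells for 6 lower and 10 higher of the 42 genes in HCC4006, with a median of 0.08, and for 27 lower and 3 higher in PC9, with a median of -0.24. Of all genes tested, 16.4% were lower and 27.2% higher in HCC4006, shares near those of the 42 genes, and 25.2% were lower and 28.5% higher in PC9.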

How the data were processed

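RNA of 24 samples had been sequenced, and the authors deposited 1 table of FPKM per gene and library. Per the submitters' processing notes, Cufflinks 2.2.1, STAR 2.5.1b and DESeq2 1.10.1 were used with the builds hg19 and GRCh37, in roles the notes leave out. The gene annotation is not stated in the labels. Libraries were placed in groups by their labels, with the DMSO libraries headed NOTX in the table. From the deposited FPKM, log2(FPKM + 1) was fitted with limma 3.58.1 (trended prior, R 4.3.3), per line and, for differences between lines, over both. Genes needed an FPKM of 1 or more in at least 3 of the 12 libraries of a line, which left 13113 in HCC4006, 12685 in PC9 and 11845 in both. P-values were adjusted by Benjamini-Hochberg over all of these, with calls at 0.05. FPKM give no read counts, so no counting interval was made and precision rests on 3 libraries per group. FPKM are relative, so a large change in a few transcripts moves all others. The MIR1244-1 and MIR1244-2 rows held 2.43% to 8.13% of the sum.

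Relative depth was read from the value of 1 read in low genes. Exact permutation tests of ratios used scipy 1.17.1 in Python 3.11.15. The genes and lists were chosen with earlier results of these data known. Falls were ranked on the log2(FPKM + 1) scale. Library values are given for the gene with the largest mean fall in each role and the 3 with the smallest. They are also given for the genes with the largest differences between genotypes or lines, and a fixed list of cell cycle genes. Promoters came from RefSeq (GRCh38.p14), credited by gene symbol, and none of the files' own coordinates were used. Of the list of cell type markers, 1 gene is not reported here. Libraries were not treated as paired by replicate number. Alternatives were other pseudocounts, filters and scalings, limma without the trend, a replicate block and leaving out each library.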

Additional observations from a re-analysis of the deposited data

Results flagged for a closer look

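Differences between genotypes or lines in the same contrast, each tested directly with limma (Benjamini-Hochberg over all genes), drew attention to 11 gene values and 1 count. In PC9, the OT response of YAP1 KO cells minus that of CTRL cells was -1.46 for GINS2 (adjusted p = 1.98e-05), -1.45 for CDC6 (adjusted p = 1.70e-07) and -1.29 for CCNE2 (adjusted p = 3.01e-06). In HCC4006 the same difference was -0.50 for CDC6 (adjusted p = 0.00199), -0.48 for CCNE2 (adjusted p = 0.00916) and 0.40 for CDT1 (adjusted p = 0.0107).

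The OT response of HCC4006 CTRL cells minus that of PC9 CTRL cells was -2.11 for GINS2 (adjusted p = 2.27e-10), -2.04 for CDC45 (adjusted p = 5.28e-12), -1.89 for ORC6 (adjusted p = 2.12e-14), -1.78 for POLE2 (adjusted p = 6.67e-12) and -1.63 for CDC6 (adjusted p = 2.50e-13). The YAP1 KO difference under OT was higher in HCC4006 than in PC9 for 37 genes. No group held the 4 samples needed to test for an outlying library.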

How the results depend on the processing

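The alternatives were pseudocounts of 0.1 and 0.01, a filter at FPKM 5 or none, 2 other scalings, limma without the trend, a replicate block and leaving out each library. They were applied to 64 gene results, and not to every gene in every comparison. Most of the 64 had been picked as the largest values of a comparison, which favours stability. The rest were picked for a small fall or by the fixed list. Of 1375 values of these results over the alternatives, 1368 kept their direction and side of the threshold. The GINS3 call in PC9 YAP1 KO cells under OT was not among the 64. CHAF1B in HCC4006 CTRL cells with OT turned to 0.20 when libraries were rescaled to 1 common sum, ran from -0.044 to 0.024 when 1 library was left out (0.024 without CTRL DMSO replicate 1 or without CTRL OT replicate 1), and passed the test at -0.12 with median-of-ratios scaling. CCNE2 lost its call in the HCC4006 interaction at both other pseudocounts and in HCC4006 YAP1 KO cells with DMSO at 0.01.

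At a pseudocount of 0.01, the genes higher in YAP1 KO cells with DMSO numbered 1 in HCC4006 and 9 in PC9, and 1 gene had a lower YAP1 KO difference under OT in HCC4006 than in PC9. With the common sum, 1 gene rose with OT in HCC4006 CTRL cells, 1 was lower in HCC4006 YAP1 KO cells with DMSO and 1 had a less negative OT response in HCC4006 YAP1 KO cells. With median-of-ratios scaling, 0 were higher in PC9 YAP1 KO cells under OT. The cause was not tested.

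Leaving out 1 library at a time kept the genes that fell with OT at 44 to 44 in HCC4006 CTRL cells and at 45 to 45 in the other 3 pairs, with 0 to 0 higher. In YAP1 KO cells with DMSO, 1 to 3 were lower and 2 to 4 higher in HCC4006, and 4 to 8 lower and 9 to 16 higher in PC9. Under OT, 9 to 13 were lower and 5 to 8 higher in HCC4006, and 42 to 43 lower and 0 to 1 higher in PC9. The interaction held 3 to 8 more negative and 2 to 3 less negative genes in HCC4006, and 40 to 42 and 0 to 0 in PC9. Between lines, 23 to 23 were lower and 14 to 17 higher with DMSO, the OT response was more negative for 35 to 37 and less negative for 1 to 1, and the YAP1 KO difference was higher for 36 to 39 and lower for 0 to 0.

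The libraries were not treated as paired by replicate number, and the sample titles do not say whether same-numbered libraries were handled together. Deviations of same-numbered libraries correlated at -0.150 to 0.236 in HCC4006 (median 0.049) and at -0.264 to 0.161 in PC9 (median 0.003). For libraries of different number the medians were -0.029 and -0.002. With the replicate block, 40 genes were called in the PC9 interaction, 5 and 2 in the HCC4006 interaction, and 38 in the YAP1 KO difference between lines.

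The share of higher among called genes moved by over 10 percentage points with the scaling. With the common sum it was 61.7% in HCC4006 YAP1 KO cells with DMSO (51.5% as deposited), 60.7% in the PC9 interaction (48.9%) and 72.2% in the OT response between lines (58.4%), and with median-of-ratios scaling 50.5% in HCC4006 YAP1 KO cells under OT (62.3%), 45.7% in the HCC4006 interaction (56.1%), 42.6% in PC9 YAP1 KO cells under OT (53.0%) and 44.2% in the OT response between lines. FPKM hold no read counts, so depth limits low genes to an unknown degree.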
